A study of Mus musculus with 12 samples.

Results

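The genes described here are those of the Dlk1-Dio3 imprinted domain on mouse chromosome 12 and of the chromosome around it: Evl, Yy1, Wdr25, Begain, Dlk1, Meg3, Rian, Mirg, Ppp2r5c and Dync1h1. They were chosen by name, for their position, but with earlier results of these data known. All 10 were found among the 25230 genes of the count files. Each of the 12 RNA-seq libraries was made from cultured mouse mesangial cells (MMC), the contractile cells that hold the capillary loops of the kidney glomerulus, prepared from pooled glomeruli and used at low passage. MMC came from wild-type (WT) mice or from lncMGC-KO mice, both on the C57BL/6 background. The KO mice are one line, KO5, in which Cas9 and a pair of guide RNAs removed the region around the transcription start of lncMGC, the host RNA of the miR-379 microRNA cluster, just upstream of Mir379. Cells of each genotype were serum-depleted (SD) as the control or were treated with 10 ng/ml TGF-β for 24 h, giving WT SD, WT TGF-β, KO SD and KO TGF-β with 3 libraries each. The libraries of a group are described as independent samples, but whether these are separate animals, glomerular preparations or dishes is not given in the sources used here, so p-values measure the spread between these libraries, which may be technical. The study asked how the loss of lncMGC changes the response of MMC to TGF-β, and the comparison here asks how the genes beside the deletion behaved.

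Genomic imprinting silences a gene on the chromosome inherited from one parent. In the Dlk1-Dio3 domain the protein-coding genes Dlk1, Rtl1 and Dio3 are expressed from the paternal chromosome, and a long run of noncoding RNAs is expressed from the maternal one: Meg3, the antisense RNA of Rtl1, Rian with its C/D-box snoRNAs, and the microRNA hosts around Mirg. A differentially methylated region between Dlk1 and Meg3 controls both sets. The domain is best known for its part in growth, in muscle and fat, and in pluripotent cells, and the miR-379 cluster has been studied in MMC as a target of TGF-β signalling. Reads of these libraries were counted per gene and not per allele, so a level below is the sum over both chromosomes, and in bulk RNA fewer cells with a transcript cannot be told apart from less of it per cell.

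In RefSeq (GRCm38.p6, the assembly of mm10) the 10 genes lie in order along chr12:108554681-110666944, an interval of 2112 kb. Distances below run from the Mir379 hairpin at chr12:109709060-109709125 to the annotated start of a gene. Upstream of the domain lie Evl (an Ena/VASP regulator of actin filaments, -1154.4 kb), Yy1 (a zinc finger transcription factor, -916.1 kb), Wdr25 (a WD-repeat protein, -814.9 kb) and Begain (a protein of the postsynaptic density, -640.8 kb). Inside it lie Dlk1 (a transmembrane relative of the Notch ligands, -256.6 kb), Meg3 (-168.1 kb), Rian (-105.1 kb) and Mirg (25.9 kb). Downstream lie Ppp2r5c (a regulatory subunit of protein phosphatase 2A, 738.1 kb) and Dync1h1 (the heavy chain of cytoplasmic dynein, 892.3 kb). All but Begain are on the plus strand, and Mirg is the only one of the noncoding members that starts downstream of Mir379. Below, Meg3, Rian and Mirg are the imprinted noncoding genes, Dlk1 is the imprinted coding gene, and the other 6 are the flanking coding genes.

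The deletion could not be checked by its target here, because lncMGC is not among the counted genes and the Mir379 row held 0 counts in all 12 libraries, which allows up to 3 counts. Mouse lncMGC is described by the study as sharing exons with Rian and Mirg, so reads of lncMGC could be counted in those rows. Rian and Mirg were both higher in the KO SD libraries than in WT SD, as given below, and neither annotated gene reaches the Mir379 hairpin beside the deletion, so the directions by genotype below rest on the labels of the libraries. The library kit selects polyadenylated RNA, so the microRNA rows report precursor fragments at most. The RefSeq tables place 60 microRNA hairpins and 118 mature microRNAs in the interval, which carry 108 different seeds (bases 2 to 8). The mature miR-379-5p is shown because the deletion lies just upstream of its hairpin, with the only other mature microRNA of RefSeq that has its seed, which comes from the same cluster. The seed is in capitals.
miR-379-5p: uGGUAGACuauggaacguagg
miR-1193-5p: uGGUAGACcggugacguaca

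Promoter windows of the 4 imprinted genes are shown, 300 bases each, most of it upstream of an annotated start (RefSeq, GRCm38.p6). The reason is that Meg3, Rian and Mirg were each called higher than in WT SD both in WT TGF-β and in KO SD below. RefSeq gives such windows for 9 of the 10 members, and for Meg3 the upstream one of 2 was taken. The Dlk1 window begins downstream of the gene start at 109452485 used for the distance above, so it belongs to another annotated start. Capitals mark matches, on either strand, to CAGAC (the Smad box, the DNA element of the TGF-β pathway's transcription factors), ATGGC (the core bound by YY1, itself encoded in the interval), TATAAA (the TATA box) and TGACG (the core of the cyclic AMP response element).
Dlk1 chr12:109452573-109452872 (+): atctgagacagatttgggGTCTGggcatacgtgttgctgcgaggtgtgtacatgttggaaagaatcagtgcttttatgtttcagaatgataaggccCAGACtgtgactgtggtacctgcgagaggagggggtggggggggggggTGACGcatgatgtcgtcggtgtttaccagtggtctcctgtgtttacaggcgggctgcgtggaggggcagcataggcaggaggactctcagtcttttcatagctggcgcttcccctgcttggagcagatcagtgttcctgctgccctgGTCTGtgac
Meg3 chr12:109540746-109541045 (+): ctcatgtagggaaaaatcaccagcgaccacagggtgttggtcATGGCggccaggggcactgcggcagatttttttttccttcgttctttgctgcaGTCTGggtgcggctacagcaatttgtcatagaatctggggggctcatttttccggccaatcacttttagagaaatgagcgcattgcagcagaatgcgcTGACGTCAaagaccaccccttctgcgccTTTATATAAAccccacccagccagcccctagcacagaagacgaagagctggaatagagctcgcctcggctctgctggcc
Rian chr12:109603695-109603994 (+): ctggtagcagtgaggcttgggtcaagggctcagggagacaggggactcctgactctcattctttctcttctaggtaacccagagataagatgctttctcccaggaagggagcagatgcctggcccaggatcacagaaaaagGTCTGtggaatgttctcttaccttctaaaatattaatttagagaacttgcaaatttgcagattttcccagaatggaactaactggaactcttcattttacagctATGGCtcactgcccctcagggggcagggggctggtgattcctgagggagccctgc
Mirg chr12:109734731-109735030 (+): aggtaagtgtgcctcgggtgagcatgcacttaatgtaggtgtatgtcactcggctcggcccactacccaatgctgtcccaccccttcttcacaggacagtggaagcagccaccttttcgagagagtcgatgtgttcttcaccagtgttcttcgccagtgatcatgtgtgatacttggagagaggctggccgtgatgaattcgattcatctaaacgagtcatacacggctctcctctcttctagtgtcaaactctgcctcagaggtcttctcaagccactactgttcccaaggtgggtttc
Of 32851 promoter windows of the same length, 49.6% held a CAGAC, 40.5% an ATGGC, 13.6% a TATAAA and 20.8% a TGACG. The Meg3 window held all 4 motifs, with a TATAAA match at -25 from the start, an overlapping match on the other strand, and a palindrome of 2 overlapping TGACG matches at -57. Rian held 1 CAGAC and 1 ATGGC, Dlk1 held 3 CAGAC and 1 TGACG, and Mirg held none of the 4. The windows also differed in CpG: there were 13 in Meg3, 10 in Mirg, 9 in Dlk1 and 0 in Rian, against a median of 7 over all windows. The Mirg window overlaps the hairpins of Mir668 and Mir485. A match describes the letters of a window and says nothing of binding.

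Gene totals ran from 19898050 to 22827706 counts per library. Libraries were scaled by the trimmed mean of M values (TMM), and CPM below are counts brought to a common library size after this scaling. All 12 markers of mesangial and smooth muscle cells were in the files, and 11 had more than 3 counts in every WT SD library, with Thy1 at or under 3 counts throughout. Of the podocyte markers, Nphs1 and Ptpro were at or under 3 counts in all libraries, as were Cdh5, Emcn and Tie1 of the endothelial list and Umod, Slc34a1 and Epcam of the tubular list. Within groups, KO SD replicate 1 stood farthest from its partners over all genes, where chi-square over its degrees of freedom was 4.91 and 5.20 against 1.33 to 2.95 for the other pairs, which bears on Meg3 below.

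The 10 genes covered a wide range of levels. RPKM (CPM per kilobase of exon) is used to compare genes, with exon lengths from the union of GENCODE vM21 exons, which counts the long retained-intron transcripts of Meg3 and Rian. Dync1h1 was the most abundant, with a mean of 107 ± 1.03 RPKM (SD, n = 3) in WT SD and 100 to 107 RPKM over the 4 groups. Yy1, Ppp2r5c and Evl came next, with 22.7 ± 0.303, 21.5 ± 0.280 and 18.5 ± 0.165 RPKM in WT SD. In KO SD the order of these 3 changed, Evl being at 25.0 ± 1.15, Yy1 at 22.7 ± 1.18 and Ppp2r5c at 22.6 ± 0.441, and the last pair did not differ beyond its spread. Meg3 was the most abundant imprinted gene, with 8.38 to 11.04 RPKM, followed by Rian with 2.28 to 5.51 RPKM. The other 4 genes stayed under 1 RPKM in all groups: Wdr25 at 0.703 to 0.803, Mirg at 0.314 to 0.593, Dlk1 at 0.269 to 0.445 and Begain at 0.106 to 0.255. Mirg and Dlk1 are neighbours in this order whose ranges of mean ± SD overlapped in WT SD, at 0.314 ± 0.0416 and 0.269 ± 0.0212 RPKM.

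**Figure D1:**
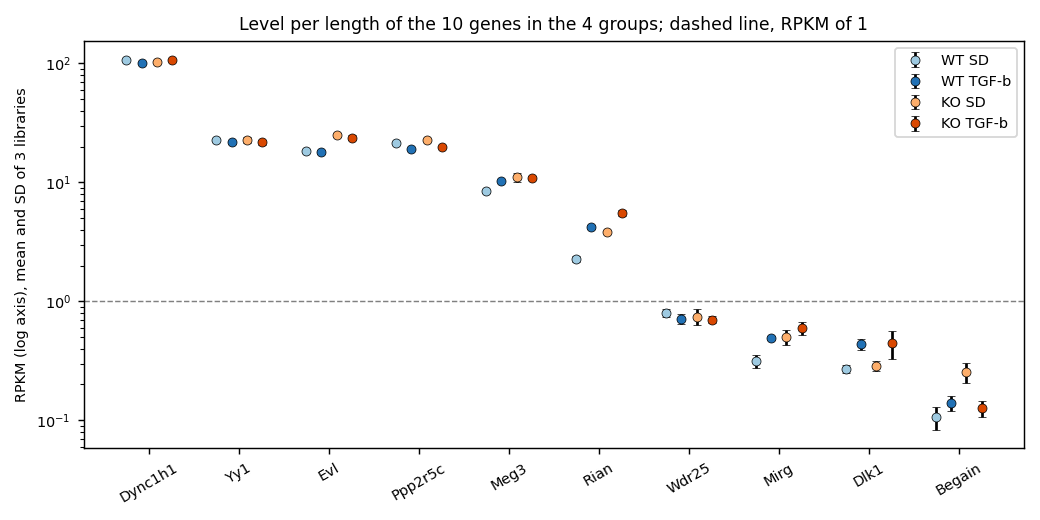
Mean RPKM of the 10 genes in the 4 groups, on a log axis, with the SD of 3 libraries as bars. Dync1h1 lay near 107 RPKM, and Wdr25, Mirg, Dlk1 and Begain lay below the dashed line at 1 RPKM in every group.

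Differences were tested with edgeR's quasi-likelihood test in 1 fit of all 12 libraries, and a gene is called where its Benjamini-Hochberg adjusted p is under 0.05. The 6 members over 1 RPKM in at least 1 library were tested among 11477 such genes. Wdr25, Begain, Dlk1 and Mirg, under that limit, were read from the same fit of all 18565 genes with a count. Large parts of the transcriptome were called in these comparisons, so each count of members stands beside the share of all genes called. TMM scaling and plain library totals also differ: without TMM the median log2 fold change of all genes over the limit moved by -0.15 and -0.20 for TGF-β against SD in WT and KO, by -0.07 and -0.12 for KO against WT in SD and TGF-β, and by -0.05 for the interaction. Changes below are on the TMM scale, on which those medians lay between -0.03 and 0.02.

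**Figure D2:**
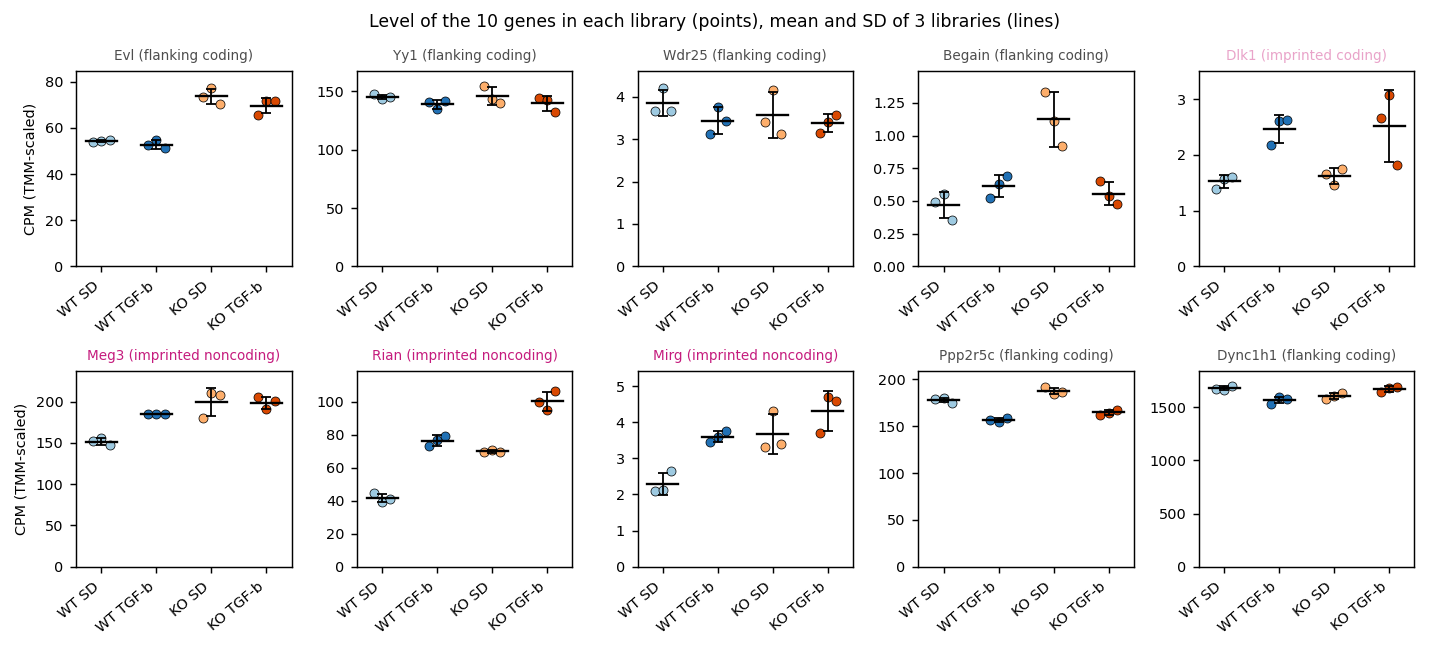
CPM of each of the 10 genes in the 12 libraries (points), by group on the x axis, with the mean and SD of 3 libraries as lines and an axis from 0. The 3 Rian values of every other group lay above the highest WT SD value of 44.5 CPM, and the Begain values of KO SD lay above those of the other groups.

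The effect of TGF-β in WT MMC. In WT MMC all 3 imprinted noncoding genes and Dlk1 rose with TGF-β, and Ppp2r5c, Dync1h1 and Yy1 of the 6 flanking coding genes fell. Among all genes over the RPKM limit 35.9% rose and 36.5% fell, and among all genes with a count 25.9% rose and 25.8% fell. The median log2 fold change was 0.65 for the noncoding genes and -0.12 for the flanking genes, beside -0.01 over all genes over the limit.

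Rian showed the largest change among the 10 genes. Its 3 WT SD libraries stood at 44.5, 39.4 and 40.99 CPM and its 3 WT TGF-β libraries at 73.0, 77.1 and 79.3 CPM. The groups did not overlap, and the difference was 0.84 ± 0.05 on the log2 scale (SE; adjusted p 2.17e-16), a 1.80-fold rise. Of the genes over the limit, 5.86% had a higher log2 fold change.

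Mirg, at 2.103, 2.13 and 2.64 CPM in WT SD, stood at 3.46, 3.58 and 3.76 CPM after TGF-β. Again every treated library was above every control library, with a log2 fold change of 0.65 ± 0.16 (adjusted p 9.99e-05), resting on 47 to 80 counts per library. For Meg3 the values were 152, 156 and 147 CPM in WT SD and 184, 185 and 185 CPM in WT TGF-β. The treated libraries lay together within a narrow range above the controls, and the rise of 0.25 ± 0.04 (adjusted p 1.26e-06) was the smallest of the 3 noncoding genes. Without TMM it was 0.10 (adjusted p 0.0402).

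Dlk1 was a low-abundance transcript in these cells, with 31 to 58 counts in WT libraries. It had 1.39, 1.57 and 1.61 CPM in WT SD and 2.18, 2.60 and 2.62 CPM in WT TGF-β. The groups did not overlap, and the log2 fold change was 0.69 ± 0.19 (adjusted p 7.95e-04).

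Among the flanking genes, Ppp2r5c had 179, 180 and 175 CPM in WT SD and 157, 155 and 158 CPM after TGF-β. It fell by 0.22 on the log2 scale (SE 0.03, adjusted p 1.57e-08), the largest decrease of the 6. Dync1h1, at 1676, 1666 and 1697 CPM in WT SD, had 1531, 1592 and 1580 CPM after TGF-β and fell by 0.13 (SE 0.02, adjusted p 2.10e-06). Yy1 fell by 0.10 (SE 0.03, adjusted p 0.0125), and this small change missed the threshold when the RPKM limit was dropped (adjusted p 0.0808) or when WT SD replicate 1 (-0.09, adjusted p 0.05505) or WT TGF-β replicate 2 (-0.07, adjusted p 0.0875) was left out. Evl (log2 fold change -0.08, adjusted p 0.115), Wdr25 (-0.16, adjusted p 0.368) and Begain (0.38, adjusted p 0.417) did not pass the test. The interval for Begain ran from -0.33 to 1.09, since it rests on 8 to 14 counts per WT library. Without TMM, Evl (-0.23) and Wdr25 (-0.35) passed the test in WT, their lower values moving with the shift of all genes.

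The effect of TGF-β in KO MMC. In lncMGC-KO MMC, Rian and Dlk1 rose with TGF-β, and Ppp2r5c, Begain and Evl fell. The other 5 genes, Meg3 and Mirg among them, did not pass the test. Over all genes, 35% rose and 39% fell among those over the RPKM limit, and 23.8% rose and 28.5% fell among those with a count.

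Rian had 69.4, 71.1 and 69.7 CPM in KO SD and 99.7, 95.2 and 107 CPM in KO TGF-β. The groups did not overlap, and the log2 fold change was 0.50 ± 0.04 (adjusted p 7.09e-12), a 1.42-fold rise. Dlk1, at 1.66, 1.45 and 1.74 CPM in KO SD, had 2.66, 3.08 and 1.81 CPM in KO TGF-β, so the lowest treated library was close to the highest control. Its log2 fold change was 0.63 ± 0.20 (adjusted p 0.00321), and the call was lost without KO TGF-β replicate 2 (0.46, adjusted p 0.0823) and without TMM (0.41, adjusted p 0.0641).

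Meg3 stood at 181, 210 and 208 CPM in KO SD and at 205, 191 and 200 CPM in KO TGF-β. The groups overlapped, and the log2 fold change was -0.02 (95% confidence interval -0.10 to 0.06; adjusted p 0.609). KO SD replicate 1, the library that stood apart over all genes, was also the lowest of its group for Meg3, and without it Meg3 fell by 0.09 (adjusted p 0.00515). Mirg had 3.32, 4.31 and 3.397 CPM in KO SD and 3.69, 4.70 and 4.58 CPM in KO TGF-β, which overlap, with a log2 fold change of 0.24 (-0.04 to 0.52; adjusted p 0.164).

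Begain had 1.34, 1.11 and 0.918 CPM in KO SD and 0.651, 0.540 and 0.479 CPM in KO TGF-β, from 20 to 29 and from 9 to 12 counts. The groups did not overlap, and Begain fell by 1.01 on the log2 scale (SE 0.32, adjusted p 0.00373). Ppp2r5c fell by 0.20 (SE 0.03, adjusted p 5.55e-08), from 188 ± 3.65 to 165 ± 2.998 CPM, close to its change in WT. The decrease of Evl, 0.10 (SE 0.04, adjusted p 0.0376), was lost in 4 of the 6 alternatives that keep all libraries and without KO SD replicate 2 or any 1 of the KO TGF-β libraries, with values from -0.04 to -0.10. Dync1h1 (0.04, adjusted p 0.0936), Yy1 (-0.08, adjusted p 0.0509) and Wdr25 (-0.08, adjusted p 0.735) did not pass. Dync1h1 passed as higher with DESeq2 (0.06, adjusted p 0.0162) and in 3 other alternatives, and as lower without TMM (-0.16, adjusted p 3.39e-08), so its direction in KO depends on the scaling.

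**Figure D3:**
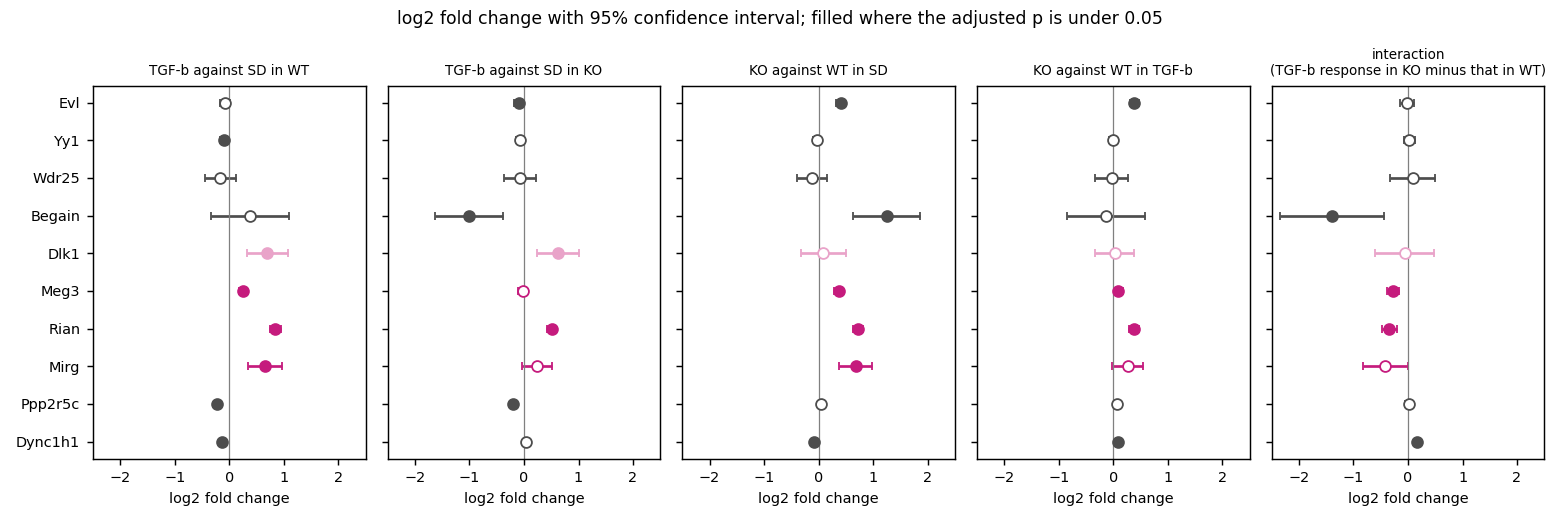
The log2 fold change of each of the 10 genes (y axis) in the 5 comparisons, with 95% confidence intervals as bars and filled points where the adjusted p is under 0.05. The noncoding genes and Dlk1 lay at 0.25 to 0.84 for TGF-β in WT, and the noncoding genes lay at 0.37 to 0.72 for KO against WT in SD.

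The effect of the genotype in SD. In serum-depleted cells all 3 imprinted noncoding genes were higher in KO than in WT MMC, as were Evl and Begain among the flanking genes, and Dync1h1 was lower. The shares over all genes were 30.6% higher and 25.3% lower among those over the RPKM limit, and 23.4% and 17.9% among those with a count. The median log2 fold change was 0.68 over the noncoding genes, 0.01 over the flanking genes and 0.02 over all genes above the limit.

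Rian was 1.65-fold higher in KO, with 39.4 to 44.5 CPM in the WT SD libraries against 69.4 to 71.1 CPM, and the log2 difference was 0.72 ± 0.05 (adjusted p 2.81e-14). Of the genes over the limit, 5.04% had a higher value in this comparison. Mirg was higher by 0.68 ± 0.16 (adjusted p 6.51e-05), with 3.32 to 4.31 CPM in KO SD against 2.103 to 2.64 CPM in WT SD. Meg3 was higher by 0.37 ± 0.04 (adjusted p 1.95e-09), and its lowest KO SD library (181 CPM) lay above its highest WT SD library (156 CPM). In untreated KO cells Rian lay just below the 73.0 to 79.3 CPM it had in WT after TGF-β.

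Dlk1, the coding gene of the domain among the 10 genes, had 1.52 ± 0.120 CPM in the WT controls and 1.62 ± 0.150 CPM in the KO controls. These did not differ beyond their spread (log2 fold change 0.09, 95% confidence interval -0.33 to 0.50, adjusted p 0.794), and the interval leaves room for changes as large as that of Meg3.

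Evl had 54.1, 54.2 and 55.0 CPM in WT SD and 73.2, 77.2 and 70.5 CPM in KO SD, which did not overlap. It was higher in KO by 0.41 ± 0.04 (adjusted p 8.57e-10), close to the 0.37 ± 0.04 of Meg3. Of the 10 genes, Evl starts farthest from the Mir379 hairpin, and an effect of distance was not tested. Begain had 0.492, 0.553 and 0.358 CPM in WT SD against 0.918 to 1.34 CPM in KO SD; the log2 difference was 1.25 ± 0.31 (adjusted p 2.75e-04). Dync1h1 was lower by a small amount, with 1580 to 1636 CPM in KO SD against 1666 to 1697 CPM in WT SD (log2 fold change -0.09 ± 0.02, adjusted p 3.69e-04). Yy1 (-0.03, adjusted p 0.542), Wdr25 (-0.12, adjusted p 0.547) and Ppp2r5c (0.05, adjusted p 0.138) did not pass the test, and the 95% confidence interval of Ppp2r5c ran from -0.01 to 0.10.

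The markers of other cell types also moved with the genotype. All markers of the 6 lists were in the files. The 6 macrophage markers summed to 32.9 to 36.2 CPM in WT SD, to 8.15 to 9.78 CPM in KO SD, and to 17.8 to 21.0 and 2.32 to 2.66 CPM after TGF-β. The 5 fibroblast markers, of which Col1a1 is also made by mesangial cells, summed to 4073 to 4444 CPM in WT SD and to 9441 to 10470 CPM in KO SD, and to 7814 to 8205 and 15710 to 16340 CPM after TGF-β, with Lum at or under 3 counts throughout. In SD the mesangial and smooth muscle list summed to 5109 to 5230 CPM in WT against 7699 to 8190 CPM in KO, although Des (log2 fold change -3.85), Serpine2 (-1.73) and Myh11 (-0.89) of this list were lower in KO. The podocyte list stood at 452 to 461 against 219 to 228 CPM, the endothelial list at 32.3 to 32.8 against 17.2 to 18.5 CPM, and the tubular list at 48.2 to 50.8 against 22.1 to 23.1 CPM. Members of a list also moved against its sum, with Pdgfra lower (-0.81) in the fibroblast list and Slc12a1 (1.83) and Aqp1 (0.73) higher in the tubular list. These 6 genes were named after their values were seen. The part of these shifts in the levels of the 10 genes was not tested.

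The effect of the genotype after TGF-β. In TGF-β-treated cells Rian, Meg3, Evl and Dync1h1 were called higher in KO than in WT MMC, and the other 6 did not pass the test. Of all genes over the RPKM limit 27.2% were higher and 27.9% lower, and of all genes with a count 18.7% and 20.3%.

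Rian was higher by 0.38 ± 0.04 (adjusted p 5.67e-09), with 95.2 to 107 CPM in KO against 73.0 to 79.3 CPM in WT. Evl was higher by 0.39 ± 0.04 (adjusted p 5.14e-09), with 65.7, 71.6 and 71.5 CPM against 52.5, 54.8 and 51.1 CPM. The Rian and Evl groups did not overlap, and the share of all genes with such groups was not counted. The Meg3 difference was small, at 0.09 ± 0.04 (adjusted p 0.0473), and it was not stable: without TMM its sign turned (-0.03, adjusted p 0.553), and leaving out any 1 WT library or KO TGF-β replicate 1 or 3 put its adjusted p between 0.0570 and 0.110, with values of 0.09 to 0.10. Dync1h1 was higher by 0.08 ± 0.02 (adjusted p 0.00250), and this sign turned too without TMM (-0.04, adjusted p 0.0853). Mirg (0.26, 95% confidence interval -0.02 to 0.55, adjusted p 0.145), Dlk1 (0.03, -0.33 to 0.38, adjusted p 0.996) and Begain (-0.14, -0.86 to 0.58, adjusted p 0.838) did not pass. Ppp2r5c stood at 0.06 (adjusted p 0.0652), and Yy1 and Wdr25 at -0.00 and -0.03, none of them called.

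How the TGF-β response differed between the genotypes. The interaction is the log2 response in KO minus that in WT. It was below 0 for all 3 noncoding genes and was called for Meg3 and Rian, and it was also called for Begain below 0 and for Dync1h1 above 0. Over all genes, 8.77% were above and 16.6% below 0 by this test among those over the RPKM limit, and 4.8% and 12.5% among those with a count. The excess of genes below 0 over the limit, 1907 against 1006 above, was 1346 against 1020 with DESeq2, and it shrank when a KO TGF-β library was left out, to 1425 against 1316 without replicate 1, 1417 against 1232 without replicate 2 and 1386 against 1235 without replicate 3. A value below 0 can be a smaller rise or a larger fall in KO.

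For Rian the interaction was -0.34 ± 0.06 (adjusted p 1.17e-04): a response of 0.84 in WT and of 0.50 in KO. For Meg3 it was -0.27 ± 0.05 (adjusted p 2.71e-04), a response of 0.25 in WT and of -0.02 in KO. Mirg had an estimate of -0.42 (95% confidence interval -0.83 to 0.00, adjusted p 0.202), which did not pass the test. Both called genes started from a higher level in KO SD, and the final level in KO TGF-β was above that in WT TGF-β for Rian. The Dlk1 responses of 0.69 and 0.63 differed by -0.06 (-0.61 to 0.48), which did not pass the test, and the interval holds the Meg3 and Rian differences.

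Begain had an interaction of -1.39 ± 0.49 (adjusted p 0.0282), the largest in size among the 10 genes and the least certain of the called ones, since it rests on 8 to 29 counts per library. It was lost with DESeq2 (-1.35, adjusted p 0.172) and in 6 of the 12 fits that left out a library. Those were WT SD replicate 3, KO SD replicate 1 and replicates 2 and 3 of both TGF-β groups, with values from -1.23 to -1.37 and adjusted p from 0.0527 to 0.0821. Dync1h1 had an interaction of 0.17 ± 0.03 (adjusted p 4.67e-05), a decrease in WT and no called change in KO. The interactions of Evl (-0.02), Yy1 (0.02), Wdr25 (0.09) and Ppp2r5c (0.01) were not called, with adjusted p from 0.810 to 0.951.

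Noncoding against flanking genes within a library. Ratios of raw counts do not depend on the scaling of libraries. The 3 noncoding genes together had 9.63, 9.64 and 9.18 counts per 100 counts of the 6 flanking genes in WT SD. In WT TGF-β the 3 libraries had 13.8, 13.7 and 13.8, in KO SD 12.6, 14.2 and 13.8, and in KO TGF-β 15.3, 14.1 and 15.1. WT SD was thus the low group, and the other 3 groups lay close to each other, with KO SD and KO TGF-β overlapping. Dync1h1 made up 79.6% to 81.6% of the flanking counts by group mean. Without it the ratios were 51.2 ± 0.818 in WT SD, 75.1 ± 1.23 in WT TGF-β, 66.5 ± 5.86 in KO SD and 80.3 ± 3.86 in KO TGF-β, with WT SD again lowest.

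**Figure D4:**
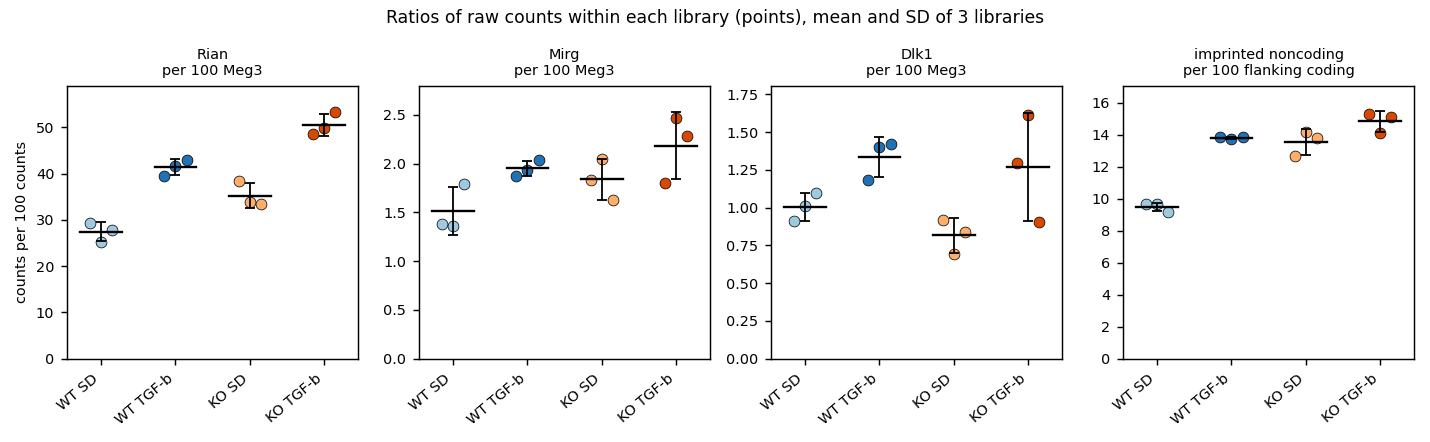
Ratios of raw counts within each library (points), by group on the x axis, with the mean and SD of 3 libraries and an axis from 0 in counts per 100 counts. Mean Rian per 100 Meg3 counts was 27.5 in WT SD and 41.4 in WT TGF-β, and 35.2 in KO SD and 50.6 in KO TGF-β.

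The noncoding genes did not keep a fixed proportion to each other. Rian had 29.3, 25.2 and 27.9 counts per 100 Meg3 counts in WT SD and 39.6, 41.6 and 42.9 in WT TGF-β. In KO it had 38.4, 33.8 and 33.5 in SD and 48.6, 49.9 and 53.2 after TGF-β. The ratio was higher after TGF-β than in SD in every library of the same genotype, and higher in KO than in WT in every library of the same treatment. Mirg per 100 Meg3 counts went from 1.52 ± 0.244 in WT SD to 1.95 ± 0.0815 in WT TGF-β, 1.84 ± 0.210 in KO SD and 2.18 ± 0.346 in KO TGF-β, with overlapping KO groups. Mirg per 100 Rian counts was 5.53 ± 0.863, 4.71 ± 0.0543, 5.24 ± 0.715 and 4.31 ± 0.618 in the same order, and these groups overlapped. Dlk1 per 100 Meg3 counts was 1.01 ± 0.0913 in WT SD and 0.816 ± 0.115 in KO SD, and 1.34 ± 0.133 and 1.27 ± 0.356 after TGF-β.

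Other genes of the interval. The count files hold 80 further genes of the interval, of which 63 are microRNAs, 7 snoRNAs, 6 protein-coding and 4 long noncoding genes. Of these, 27 had no count in any library, and the 37 microRNA rows with a count never exceeded 6 counts. Only 7 had at least 10 counts in 3 libraries. Of the 53 with a count, 5 rose and 2 fell with TGF-β in WT, 2 rose and 2 fell in KO, 3 were higher and 1 lower in KO than in WT in SD, and 2 were higher after TGF-β. The shares over all genes with a count were larger, at 25.9% and 25.8% for TGF-β in WT, 23.8% and 28.5% in KO, 23.4% and 17.9% for the genotype in SD and 18.7% higher after TGF-β. Short rows pass the RPKM limit on a single read, so calls among the microRNA rows are not described.

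Dio3, the paternally expressed deiodinase gene at the far end of the domain (570.2 kb), moved against the noncoding genes with TGF-β and with them in KO. It had 12, 11 and 19 counts in WT SD, 5, 1 and 2 in WT TGF-β, 49, 35 and 41 in KO SD and 13, 13 and 11 in KO TGF-β. It fell by 2.27 (SE 0.50, adjusted p 1.59e-04) with TGF-β in WT and by 1.56 (SE 0.27, adjusted p 6.44e-06) in KO. It was higher in KO by 1.62 ± 0.26 in SD (adjusted p 3.64e-06) and by 2.33 ± 0.51 after TGF-β (adjusted p 2.39e-04). It passed the RPKM limit only through KO SD replicate 1, a library of the group where it was highest (mean 0.958 ± 0.141 RPKM). Its tests thus rest on a filter passed through that group. Its neighbour Dio3os, annotated just upstream of Dio3 on the other strand, had 0 to 18 counts and fell by 2.19 (adjusted p 0.00518) in WT and by 2.22 (adjusted p 1.64e-04) in KO, but neither passed with DESeq2 (adjusted p 0.216 and 0.197). The WT value rests on WT SD replicate 3, without which it was -0.05, and the call was also lost without WT TGF-β replicate 3 (-1.68, adjusted p 0.0519). Rtl1, the paternally expressed retrotransposon-derived gene antisense to part of the noncoding run, had at most 3 counts in any library.

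AF357359, a snoRNA row within Rian, had 30, 16 and 24 counts in WT SD, 42, 41 and 39 in WT TGF-β, 50, 41 and 35 in KO SD and 28, 40 and 37 in KO TGF-β. It rose with TGF-β in WT (0.90 ± 0.22, adjusted p 1.59e-04) and was higher in KO SD than in WT SD (0.93 ± 0.22, adjusted p 1.06e-04), as Rian did and was. Its TGF-β response in KO was -0.06 (adjusted p 0.875). The reads of this row and of Rian come from the same stretch of the chromosome.

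Wars, the cytoplasmic tryptophanyl-tRNA synthetase gene between Yy1 and Wdr25, had the clearest change of the other coding genes. WT MMC had 59.0 ± 1.65 CPM in SD and 80.1 ± 0.815 CPM after TGF-β, and KO MMC had 70.5 ± 1.74 and 122 ± 2.42 CPM. The log2 responses were 0.41 ± 0.04 and 0.78 ± 0.03, and the interaction was 0.37 ± 0.05 (adjusted p 1.15e-06), of the opposite sign to those of Meg3 and Rian. It was higher in KO by 0.23 in SD (adjusted p 5.07e-06) and by 0.59 after TGF-β (adjusted p 1.95e-15). Slc25a29, a mitochondrial carrier gene, rose by 0.28 in WT (adjusted p 0.0466) and 0.29 in KO (adjusted p 0.0492), calls lost with DESeq2 and without TMM. Slc25a47 and B930059L03Rik were not called in any comparison.

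**Figure D5:**
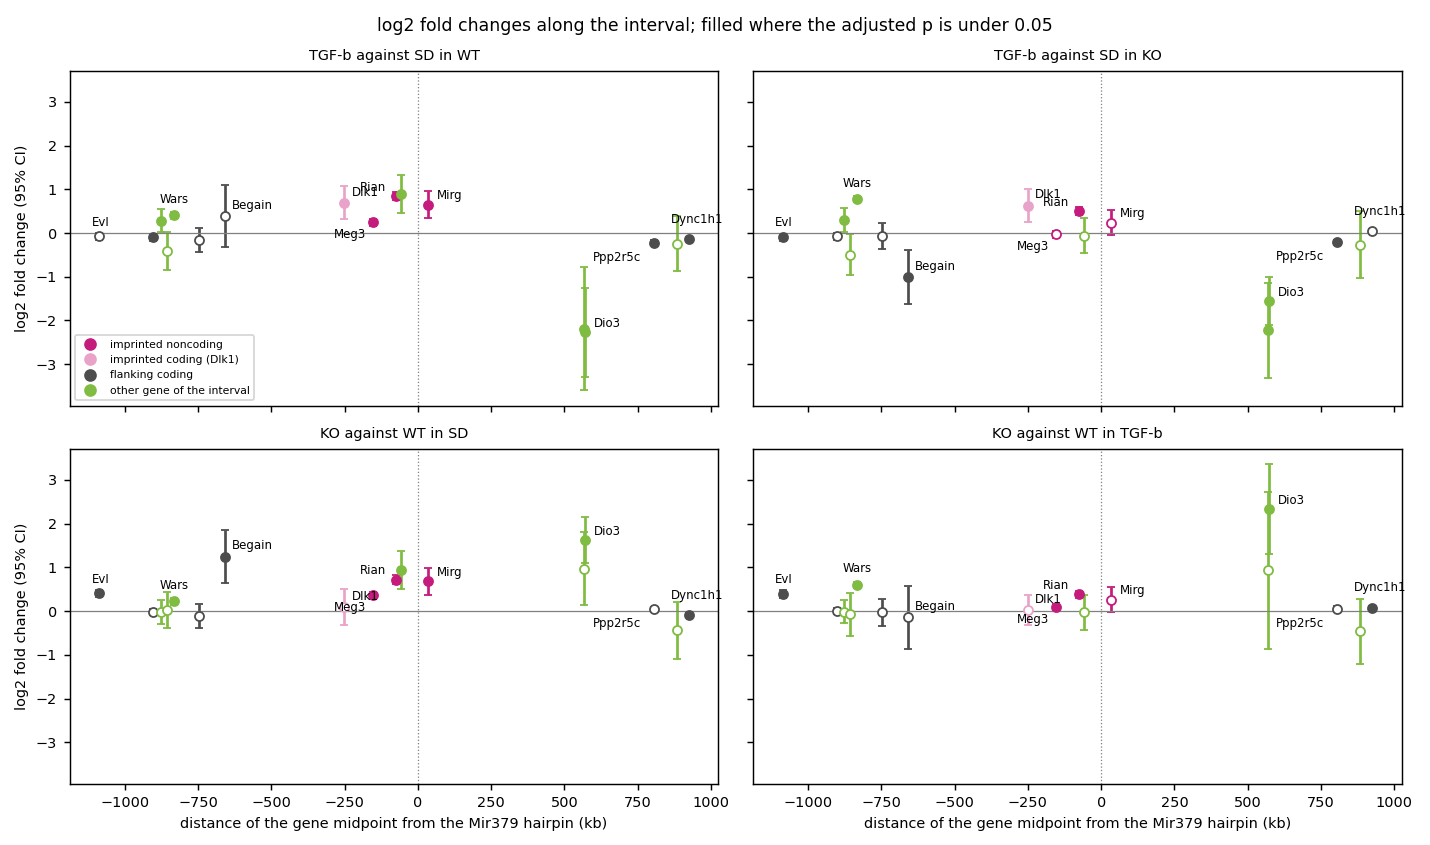
The log2 fold change, with 95% confidence interval, of the 10 genes and of the 7 other genes with at least 10 counts in 3 libraries (y axis), against the distance in kb of the gene midpoint from the Mir379 hairpin (x axis, dotted line at 0), for 4 comparisons. For KO against WT in SD, Meg3, Rian, Mirg and AF357359, with midpoints from -152.7 to 33.2 kb, were called higher. Evl, Begain, Dio3 and Wars, farther from the hairpin, were called higher too, and Dync1h1, also farther away, was called lower. Dio3 passed the RPKM limit only through KO SD replicate 1, in the group where it was highest.

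Genes with a pattern like that of the imprinted genes. Over the 12 libraries, Pearson's r of log2 CPM was computed between Meg3, Rian or Dlk1 and each of 11471 other genes over the RPKM limit, as a description, since the points share 4 groups and their libraries. The genes nearest to Rian were Srsf6 (r = 0.99), a splicing factor gene, Fn1 (0.99), which encodes fibronectin, a matrix protein induced by TGF-β, Hsp90ab1 (0.99), Lhfpl2 (0.99) and Pycr1 (0.99), a gene of proline synthesis. Fn1 had means of 13860 CPM in WT SD, 24510 in WT TGF-β, 23320 in KO SD and 33250 in KO TGF-β, the order that Rian had. Nearest to Meg3 were Taf1d (0.96), Xrcc6 (0.95), Extl3 (0.94), Atg4d (0.94) and Raly (0.93). Taf1d, which hosts snoRNAs, had 11.6, 15.2, 16.2 and 17.1 CPM in the same order of groups. Nearest to Dlk1 were Shq1 (0.95), Mir181b-2 (0.94), Med8 (0.93), Wdr74 (0.93) and Ccar1 (0.91), which stood higher with TGF-β in both genotypes, and the Mir181b-2 row had a mean of at most 0.126 CPM in any group.

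Genes that keep imprints or write histone marks. A list of 22 genes of DNA methylation, imprint protection and Polycomb complexes was read beside the locus. In SD, 9 were higher and 3 lower in KO than in WT, beside 30.6% and 25.3% of all genes over the RPKM limit. After TGF-β, 8 were higher and 5 lower, beside 27.2% and 27.9%. With TGF-β, 4 rose and 7 fell in WT, beside 35.9% and 36.5%, and 4 rose and 11 fell in KO, beside 35% and 39%. The 4 that passed the test with a change over 1.5-fold in either comparison were Uhrf1, Ezh2, Dnmt1 and Tet1. Uhrf1, which recruits the maintenance methyltransferase to replicating DNA, had 6.53, 6.47 and 7.25 CPM in WT SD and 21.1, 22.2 and 21.3 CPM in KO SD (1.64 ± 0.09, adjusted p 1.27e-16). Ezh2, the catalytic subunit of Polycomb repressive complex 2, had 13.9 ± 0.539 and 27.4 ± 0.350 CPM in the same groups (0.94 ± 0.06, adjusted p 1.10e-13), and Dnmt1, the maintenance methyltransferase, had 45.7 ± 1.36 and 77.2 ± 3.57 CPM (0.72 ± 0.04, adjusted p 1.07e-15). After TGF-β the Uhrf1 difference was 0.08 (adjusted p 0.636), which did not pass the test. Those of Ezh2 and Dnmt1 were 0.26 (adjusted p 0.00232) and 0.19 (adjusted p 9.81e-04), and neither passed without TMM. Tet1, which oxidizes methylated cytosine, was lower in KO, by 0.40 in SD (adjusted p 5.45e-05) and by 0.81 after TGF-β (adjusted p 1.78e-07) on the log2 scale. Tet1 passed the RPKM limit only through WT SD libraries, and with no filter the differences were -0.37 (adjusted p 1.45e-05) and -0.80 (adjusted p 8.75e-12). Zfp57, a zinc finger protein that protects methylated imprints, was higher in KO by 0.47 in SD (adjusted p 6.93e-08), a change under 1.5-fold. Zfp445 of the same list stood at -0.03 in SD (adjusted p 0.388) and was lower in KO after TGF-β (-0.16, adjusted p 2.00e-04). Ezh1 was lower in KO in SD (-0.43, adjusted p 6.86e-09). Zfp57, Zfp445 and Ezh1 were chosen here after their values were seen. Of 10 genes of microRNA processing, 4 were called higher and 2 lower for the genotype in SD, against 4 and 3 after TGF-β, beside the same shares over all genes (30.6% and 25.3%, and 27.2% and 27.9%).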

How the data were processed

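Polyadenylated RNA of MMC was sequenced in 12 libraries, grouped by the genotype and treatment in their labels. The authors aligned the reads to mm10 with TopHat and deposited raw gene counts per library made with HTSeq, which were used as deposited. Counting was strand-specific over RefSeq genes and left out alignments of low quality, so a gene and its antisense partner were counted apart. Summary lines that name no gene were left out: unassigned alignments (10.3% to 15.4% of a library), ambiguous ones (0.225% to 0.274%) and alignments to several places (11.2% to 11.7%). The reads are counted without molecular identifiers, so the limit of 3 counts that a count of 0 allows covers counting error only. No column of per-sample values was left unused (0).

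Gene symbols were matched to RefSeq (GRCm38.p6) for 24930 of 25230 genes by symbol and for 188 by an older symbol, and 112 had no match. Exon lengths were found for 24698 genes. Genes over 1 RPKM in at least 1 library were kept (11477), as in the study's methods, and edgeR 4.0.16 (R 4.3.3) fitted TMM-scaled counts of the 12 libraries by the quasi-likelihood test with 4 group means. Members under this limit were read from the same fit of all 18565 genes with a count. P-values were adjusted by Benjamini-Hochberg over all genes of a fit, and standard errors and 95% intervals come from that fit. Log2 CPM for likeness used a prior count of 2. The fitting code was tested on simulated data with 200 changed genes. The alternatives were library size without TMM, DESeq2 1.42.0, no filter, a filter of CPM over 1 in at least 3 libraries, a fit of only the groups compared, a replicate block, and each library left out. Sequences were read from RefSeq tables, and tables and figures were made with pandas 2.3.3 and matplotlib 3.10.9 in Python 3.11.15.

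The members and lists were chosen with earlier results of these data known. Genes named are the 10 members, every other gene of the interval with at least 10 counts in 3 libraries (with Rtl1, Dio3 and Dio3os in any case), the 5 genes nearest in pattern to Meg3, Rian and Dlk1, and regulators of imprints past the threshold with a change over 1.5-fold for KO against WT. With 3 against 3 libraries, an exact permutation test of a single value cannot go below p = 0.1, so none is given. A gene of the marker lists is not reported here by name.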

Additional observations from a re-analysis of the deposited data

Results flagged for a closer look

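These genes had a TGF-β response that differed between the genotypes by the interaction term of the edgeR quasi-likelihood fit, given as the log2 response in KO minus that in WT. Groups of 3 libraries are too small for a test of single samples that stand apart.

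Among the members, the difference was -0.34 for Rian (0.84 in WT, 0.50 in KO) and -0.27 for Meg3 (0.25 in WT, -0.02 in KO). It was 0.17 for Dync1h1 (-0.13 in WT, 0.04 in KO) and -1.39 for Begain (0.38 in WT, -1.01 in KO). The Begain difference was not called with DESeq2 (adjusted p 0.172).

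Of the other genes of the interval, Wars differed by 0.37 (0.41 in WT, 0.78 in KO). AF357359 differed by -0.96 (0.90 in WT, -0.06 in KO), which was not called with DESeq2 (adjusted p 0.151).

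Among the regulators, Uhrf1 differed by -1.56 (-0.74 in WT, -2.30 in KO), Ezh2 by -0.68 (0.12 in WT, -0.57 in KO) and Dnmt1 by -0.54 (-0.15 in WT, -0.69 in KO). Tet1 differed by -0.41 (-0.90 in WT, -1.31 in KO), and this was not called with DESeq2 (adjusted p 0.0877).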

How the results depend on the processing

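Among the values of the members' log2 fold changes under the alternatives, 798 kept their direction and side of the threshold, 28 lost the call, 24 gained it and 35 changed sign. In the order TGF-β in WT, TGF-β in KO, KO against WT in SD, KO against WT after TGF-β and interaction, 7, 5, 6, 4 and 4 members were called. Without TMM the counts were 9, 7, 7, 4 and 4, and with DESeq2 7, 5, 6, 4 and 3. With no filter they were 6, 5, 7, 4 and 4, and with the CPM filter, which left Begain without a value, 7, 4, 5, 5 and 3. With only the groups compared they were 7, 5, 6 and 4, since the interaction needs all groups. Leaving out 1 library moved the count for TGF-β in KO between 3 (without KO TGF-β replicate 2) and 7 (without KO SD replicate 3).

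Samples with the same replicate number deviated together little, with correlations of deviations from group means of -0.03 to 0.09, and the numbers were not taken as a pairing. In 19 of 36 comparisons of a library with another group its best match had its own number. An even draw among the 3 libraries of a group would give fewer. The fit with a replicate block called 7, 6, 6, 4 and 4 members. It added Yy1 for TGF-β in KO (-0.08, adjusted p 0.0248) and changed no other call of a member.

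The sign changed without TMM for Dync1h1 with TGF-β in KO (-0.16), for Dlk1 (-0.016) and Ppp2r5c (-0.028) in KO against WT in SD, and for Dlk1 (-0.11), Meg3 (-0.029), Ppp2r5c (-0.061) and Dync1h1 (-0.042) after TGF-β. The interactions of Yy1 (-0.025) and Ppp2r5c (-0.033) changed sign as well. With DESeq2 it changed for Yy1 after TGF-β (0.0098) and for the Evl interaction (0.0065). With no filter it changed for Yy1 in SD (0.0044) and after TGF-β (0.0086) and for the Ppp2r5c interaction (-0.0042), and with the CPM filter for Yy1 after TGF-β (0.0041). Without TMM the median of all genes moves down; for the others the cause was not tested.

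With a library left out, values that crossed 0 ran from -0.16 to 0.047 for Wdr25 and from -0.090 to 0.025 for Meg3 (TGF-β in KO), and from -0.069 to 0.0028 for Yy1 (KO against WT in SD). After TGF-β, KO against WT ran from -0.029 to 0.049 for Yy1, from -0.093 to 0.048 for Wdr25 and from -0.15 to 0.22 for Dlk1. Interactions ran from -0.049 to 0.058 for Evl, from -0.0073 to 0.095 for Yy1, from -0.00056 to 0.21 for Wdr25 and from -0.23 to 0.13 for Dlk1. Depth limits Begain, Dlk1 and Mirg most, with 8 to 29 counts per library for Begain.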
